A study of Mus musculus with 11 samples.

Results

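The 10 genes described here encode secreted ligands of the transforming growth factor beta (TGF-beta) family: the TGF-beta isoforms Tgfb1, Tgfb2 and Tgfb3, the bone morphogenetic proteins Bmp2, Bmp4, Bmp5, Bmp6 and Bmp7, the growth and differentiation factor Gdf5, and Inhba, which encodes the beta A subunit of activin A. They were chosen by name from the 23420 gene symbols of the count table, and all 10 were among the 14531 genes with enough counts to test. Poly-A RNA was sequenced from whole mandibular condylar fibrocartilage, the tissue that covers the jaw condyle, of female C57BL/6 mice. Every animal was ovariectomized at 6 weeks of age, carried a pellet for 1 week and gave tissue at 7 weeks. The pellet was a placebo (Plb) or held 0.01 mg of 17β-estradiol (E2) for release over 60 days. The animals were either wild type (WT) or labelled ERalphaKO (KO), a knockout of estrogen receptor alpha, the product of Esr1. This gave 4 groups: WT Plb with 2 samples, and WT E2, KO Plb and KO E2 with 3 samples each. All groups lacked ovaries, so there was no group with its own ovarian estrogen, and the labels do not say which cells lost the receptor or which part of Esr1 was deleted. The labels number the samples but do not say that each came from a different animal, and the tests below therefore rest on sample-to-sample spread, part of which may be technical.

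As background, ligands of this family are secreted as dimers and bind pairs of type I and type II receptor kinases, which phosphorylate SMAD transcription factors. TGF-betas and activins act mainly through Smad2 and Smad3, and BMPs and Gdf5 through Smad1, Smad5 and Smad9. TGF-betas leave the cell in a latent form that matrix and cell-surface proteins store and release. In cartilage and joint tissue, TGF-betas are known for supporting matrix production and the progenitor cells, BMPs for driving chondrocyte and bone differentiation, and Gdf5 for marking and shaping developing joints.

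Libraries held 15.68 to 25.46 M counts, so that 3 counts corresponded to 0.118 to 0.204 CPM (counts per M of library total, scaled for library composition). Esr1 stood at 6.43 to 13.4 CPM in the 5 WT libraries and at 2.55 to 4.86 CPM in the 6 KO libraries, so Esr1 reads remained in the KO. The markers of the labelled tissue were present in every library: the 9 chondrocyte genes found in the table, such as Col2a1 and Acan, summed to 8440 CPM or more, and the 8 fibrous layer and tendon genes to 104800 CPM or more, with none at 0. Ribosomal precursor Rn45s took 16.0% of the counts in WT Plb sample 2 and at most 3.13% elsewhere. The tissue was not sorted, and in such bulk samples fewer cells of a type and less RNA per cell cannot be told apart.

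Tgfb1 and Tgfb3 were the most abundant ligand transcripts in all 11 libraries, and Gdf5 was last by median. Levels can be compared between genes only per length, so CPM was divided by the length of each gene's merged exons. The median over the 11 libraries was 98.9 CPM per kb for Tgfb1, 60.5 for Tgfb3 and 16.7 for Tgfb2. The BMPs followed, with medians of 9.87 CPM per kb for Bmp4, 6.92 for Bmp6, 5.98 for Bmp2, 3.76 for Bmp7 and 3.68 for Bmp5, and then Inhba at 2.67 and Gdf5 at 1.56. The 3 TGF-beta isoforms together made up 81.9 to 85.0% of the summed CPM per kb of the 10 ligands, with a median of 83.6%.

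The order was firm at the top and loose at the bottom. The ranges over libraries were apart between Tgfb1 and Tgfb3 and between Tgfb3 and Tgfb2, and every lower pair of neighbours overlapped in range. Within libraries, Tgfb2 lay above Bmp4 in 11 of 11, Bmp4 above Bmp6 in 10, Bmp6 above Bmp2 in 9 and Bmp2 above Bmp7 in 11. Bmp7 lay above Bmp5 in only 6 of 11 libraries, so those neighbours did not differ beyond their spread. Bmp5 lay above Inhba in 8 libraries and Inhba above Gdf5 in 9. The scarce ligands also varied more: the highest library was 1.26 times the lowest for Tgfb1 and 1.24 times for Tgfb3, but 3.10 times for Bmp5, 3.47 times for Inhba and 4.0 times for Gdf5. Counts behind these values ran from 37 for Gdf5 in KO Plb sample 2 to 5569 for Tgfb1 in a WT E2 sample, so the Gdf5 values carry the largest counting error.

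**Figure D1:**
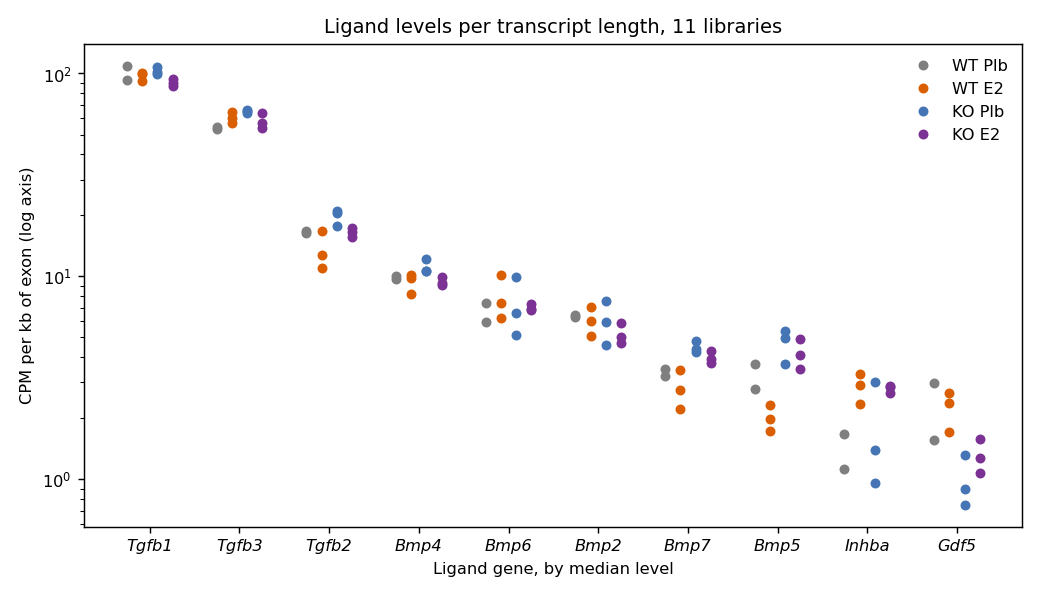
Level of each of the 10 ligands in CPM per kb of exon on a log axis, with 1 point per library, coloured by group, and ligands ordered by their median over the 11 libraries. Tgfb1 and Tgfb3 sit above all others, at medians of 98.9 and 60.5 CPM per kb, and Bmp7 and Bmp5 lie over each other.

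The ligands were compared between groups with edgeR's quasi-likelihood test, with p-values adjusted over all 14531 genes by the Benjamini-Hochberg method and a gene called at an adjusted p under 0.05. A log2 difference of 1 is a doubling. Only Bmp5 and Bmp7 were called, both higher in KO than in WT under estradiol. Estradiol called none of the 10 ligands in WT, where 1.55% of all genes tested were called, and none in KO, where 2.73% were called. With the replicate number as a block, 629 genes in place of 396 were called for estradiol in KO, again with no ligand. The interaction, which tests whether the estradiol difference in WT departs from that in KO, called none, against 1.15% of genes. KO against WT under placebo called none, against 0.00688% of genes. KO against WT under estradiol called 2 of 10 ligands, against 11.5% of genes, or 7.27% counting only genes higher in KO, so on this count the ligands were not set apart from other genes. DESeq2 and limma-voom, run as alternatives, called the same number of ligands in each of the 5 comparisons.

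The values beneath the calls bear on how firmly a missing call can be read. At an unadjusted p under 0.05, the test picked 2 ligands for estradiol in WT (Bmp5, Inhba), 2 in KO (Tgfb1, Bmp4), 1 in the interaction (Tgfb3), 4 for KO against WT under placebo (Tgfb3, Bmp5, Bmp7, Gdf5) and 4 under estradiol (Tgfb2, Bmp5, Bmp7, Gdf5). The 95% interval of the log2 difference stayed within a 2-fold change for 8 of 10 ligands in each estradiol comparison, for 6 in the interaction, and for 7 and 8 in the genotype comparisons under placebo and estradiol. Inhba, Bmp5, Gdf5 and, in the interaction, Bmp6 were the ligands whose intervals ran past 2-fold in 1 comparison or more. Where such a ligand was not called, its interval allowed a difference of more than 2-fold. The intervals were built with 7 degrees of freedom, generally fewer than the test used. They therefore tend to be wider than the p-values imply, and some cross 0 at an unadjusted p under 0.05. The median log2 difference of the 10 ligands was -0.06 for estradiol in WT, -0.17 in KO, 0.14 for the interaction, 0.21 for KO against WT under placebo and -0.05 under estradiol, while the median over all genes lay within 0.0033 of 0 in each. Comparisons that share a group, such as those using WT E2, are not independent of each other.

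**Figure D2:**
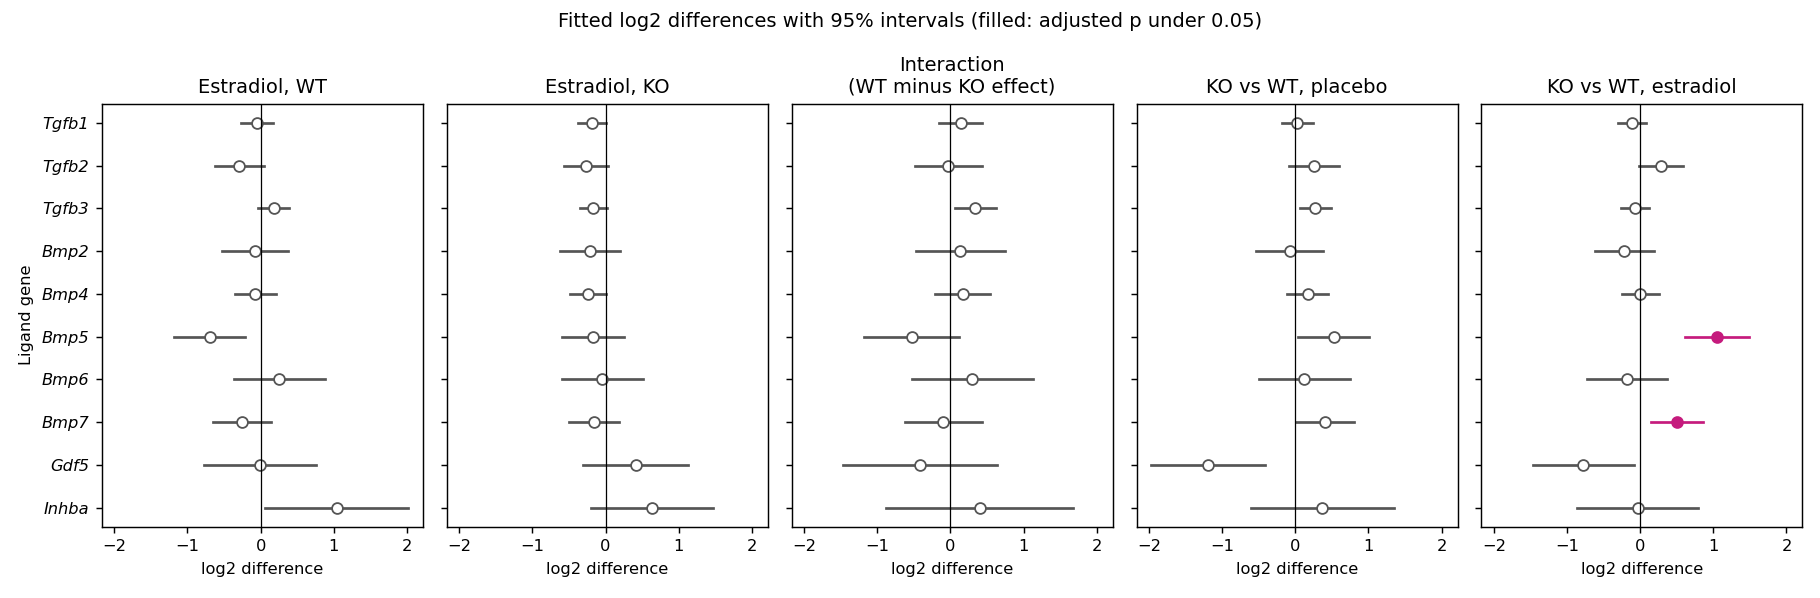
Log2 difference of each ligand in the 5 comparisons (horizontal axis, log2 units), with the 95% interval as a line and filled points for adjusted p under 0.05. Only Bmp5 (1.05) and Bmp7 (0.50) in KO against WT under estradiol are filled.

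Among the BMPs, Bmp5, known from mice for its part in shaping skeletal elements, showed the clearest group difference. It stood at 14.2 and 10.7 CPM in WT Plb samples 1 and 2, at 6.63, 8.88 and 7.58 CPM in WT E2 samples 1 to 3, at 20.6, 19.1 and 14.1 CPM in KO Plb samples 1 to 3, and at 15.7, 18.8 and 13.4 CPM in KO E2 samples 1 to 3. The WT E2 libraries were the 3 lowest of all 11 and did not overlap with any other group. Under estradiol, Bmp5 was 2.07-fold higher in KO (16.0 ± 2.72 CPM, SD, n = 3) than in WT (7.70 ± 1.13 CPM, n = 3), a log2 difference of 1.05 (SE 0.18, edgeR adjusted p = 0.00377). Under placebo the means were 17.9 ± 3.40 CPM in KO and 12.4 ± 2.46 CPM in WT, with a log2 difference of 0.52 that was not called (SE 0.21, edgeR adjusted p = 0.538). The estradiol difference was -0.70 in WT (SE 0.21, edgeR adjusted p = 0.128) and -0.17 in KO (SE 0.18, edgeR adjusted p = 0.719), and neither was called. The difference between those estradiol effects was -0.53 (SE 0.27, edgeR adjusted p = 0.524), so a genotype-dependent response of Bmp5 was not shown. In the authors' deposited table for KO against WT under estradiol, Bmp5 had a log2 fold change of 1.03 and an adjusted p of 2.136e-06.

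Bmp7, a BMP broadly expressed in skeletal tissue, was higher in every KO library than in every WT library. Its levels were 11.9 and 12.8 CPM in WT Plb, 12.7, 10.1 and 8.16 CPM in WT E2, 16.0, 15.5 and 17.5 CPM in KO Plb, and 13.8, 14.4 and 15.8 CPM in KO E2, each in sample order. It was the only ligand of the 10 for which all 6 KO and all 5 WT libraries were apart, and 2.65% of genes tested were higher in KO in this sense. Under estradiol the KO mean was 1.42-fold the WT mean, with a log2 difference of 0.50 (SE 0.15, edgeR adjusted p = 0.0468), and under placebo the difference was 0.41 (SE 0.17, edgeR adjusted p = 0.538). The call under estradiol sat at the threshold: it was lost when any 1 library other than WT Plb sample 2 or WT E2 sample 1 was left out, with adjusted p from 0.050 to 0.147, and with the replicate block (0.0592). In the authors' deposited table for the same comparison, Bmp7 had a log2 fold change of 0.49 and an adjusted p of 0.0615. Estradiol differences of Bmp7 were -0.26 in WT and -0.16 in KO on the log2 scale, and neither was called.

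The genes nearest to these ligands in pattern were taken as the 3 genes with the highest Pearson correlation of log2 CPM over the 11 libraries among 12467 genes ranked. For Bmp5 they included Clmn (r = 0.957) and Cplx2 (r = 0.948), and for Bmp7 they were Zfp319 (r = 0.943), Pdk4 (r = 0.941) and Inpp4a (r = 0.924). Among the ligands themselves, Bmp5 and Bmp7 had r = 0.702 and Bmp5 and Gdf5 had r = -0.846. Tgfb2 was closer to both, with r = 0.743 to Bmp5 and r = 0.754 to Bmp7. These are descriptions over libraries that share groups and depth, and the highest of so many correlations is high by selection.

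Markers of other cell types moved with the comparison that called Bmp5 and Bmp7. In KO against WT under estradiol, 8 of 8 B lineage markers and 6 of 9 neutrophil lineage markers were called higher (the latter 0 by limma-voom and 9 by DESeq2), and 6 of 7 macrophage and 6 of 8 osteoclast markers were called lower. Of the other lists, 4 of 8 megakaryocyte and platelet markers, 4 of 10 of dividing cells, 1 of 8 of the fibrous layer and tendon and 1 of 4 tested adipocyte markers were called higher. The markers called lower were 3 of 9 for osteoblasts and osteocytes, 2 of 6 endothelial and 1 of 9 chondrocyte. Of all genes tested, 11.5% were called in this comparison, and 7.27% were called higher. A single called marker therefore does not set its list apart from other genes. The B lineage sum was 9.51 to 12.1 CPM in WT E2 and 129.5 to 241.9 CPM in KO E2, against 40.4 to 46.3 CPM in WT Plb and 62.7 to 139.9 CPM in KO Plb. The neutrophil lineage sum was 7.54 to 41.6 CPM in WT E2 and 1251 to 4496 CPM in KO E2, against 194.8 to 444.4 CPM in WT Plb and 0.719 to 717.5 CPM in KO Plb, and 2 of its 9 genes were at 0 in WT E2 sample 2 and in KO Plb sample 1. The osteoclast sum was 12410 to 12880 CPM in WT E2 and 8031 to 9512 CPM in KO E2, against 8900 to 10630 CPM in WT Plb and 8650 to 9853 CPM in KO Plb. The macrophage sum was 952.8 to 1122 CPM in WT E2 and 593.9 to 736 CPM in KO E2, against 727.7 to 791 CPM in WT Plb and 672.5 to 674.9 CPM in KO Plb. The osteoblast and osteocyte sum was 9991 to 10310 CPM in WT E2 and 6317 to 7255 CPM in KO E2, without overlap, against 7449 to 8880 CPM in WT Plb and 7446 to 7685 CPM in KO Plb. The endothelial sum was 377.8 to 436 CPM in WT E2 and 314.2 to 351 CPM in KO E2, and the megakaryocyte and platelet sum 17.5 to 20.0 and 14.6 to 104.1 CPM. The fibrous layer and tendon sum was 104800 to 129200 CPM in WT E2, 122700 to 149600 CPM in KO E2, 125300 to 161200 CPM in WT Plb and 160400 to 165500 CPM in KO Plb. Of 9 skeletal muscle markers tested, 0 were called by edgeR, but all 9 had log2 differences under 0 (median -3.08). The skeletal muscle sum was 30.05 to 212.5 CPM in WT E2 and 10.21 to 13.9 CPM in KO E2. Under placebo it was 35.26 to 1009 CPM in WT and 68.98 to 594.5 CPM in KO. The part of these cell types in the ligand differences was not tested.

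Inhba had the largest estradiol difference of the ligands in both genotypes, without a call. It stood at 7.21 and 10.7 CPM in WT Plb and at 21.2, 18.7 and 15 CPM in WT E2. It stood at 8.92, 6.10 and 19.4 CPM in KO Plb and at 18.1, 18.4 and 17.1 CPM in KO E2, each in sample order. The WT ranges were apart, and in KO a single placebo library, sample 3, lay above all 3 estradiol libraries. Over both genotypes, 1 of 5 placebo libraries reached the lowest of the 6 estradiol libraries. The log2 difference was 1.04 in WT (SE 0.42, edgeR adjusted p = 0.291) and 0.64 in KO (SE 0.35, edgeR adjusted p = 0.412), and the interaction was 0.40 (SE 0.54, edgeR adjusted p = 0.879).

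KO Plb sample 3 decided how Inhba was read. Without it, Inhba was called in WT, with an adjusted p of 0.0359 at a log2 difference of 1.03, and in KO, with an adjusted p of 0.0236 at a log2 difference of 1.24. The KO library acts on the WT result because 1 estimate of the spread is shared by all groups. That library stands out by its Inhba level itself, so the calls made without it are not separate support for an estradiol difference. Under either pellet, KO and WT differed by less than their spread, with log2 differences of 0.37 under placebo (SE 0.41) and -0.03 under estradiol (SE 0.35). In the authors' deposited table for estradiol in WT, Inhba was the only ligand of the 10 with an adjusted p under 0.05, at a log2 fold change of 0.99 and an adjusted p of 0.00264. In the authors' deposited table for estradiol in KO its log2 fold change was 0.59, with an adjusted p of 0.275. Markers of dividing cells moved in the same libraries: their 10 genes summed to 245.6 to 335.1 CPM in WT Plb and 356.3 to 487.9 CPM in WT E2. In KO the sum was 229.6 to 251.1 CPM under placebo and 504.7 to 688.9 CPM under estradiol. In KO Plb sample 3, whose Inhba level was high, that sum was no more than 251.1 CPM. By edgeR, estradiol called 10 of 10 higher in KO, against 2.73% of all genes called. In WT it called 0 of 10 (9 at an unadjusted p under 0.05, 2 by DESeq2, 0 by limma-voom), against 1.55%. Other lists also moved with estradiol in WT. Above 0 were 8 of 8 osteoclast (2 called), 7 of 7 macrophage (0 called) and 6 of 6 endothelial markers (1 called). Under 0 were 8 of 8 B lineage (4 called) and 9 of 9 neutrophil lineage markers (0 called). The part of these cell types in the Inhba difference was not tested.

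**Figure D3:**
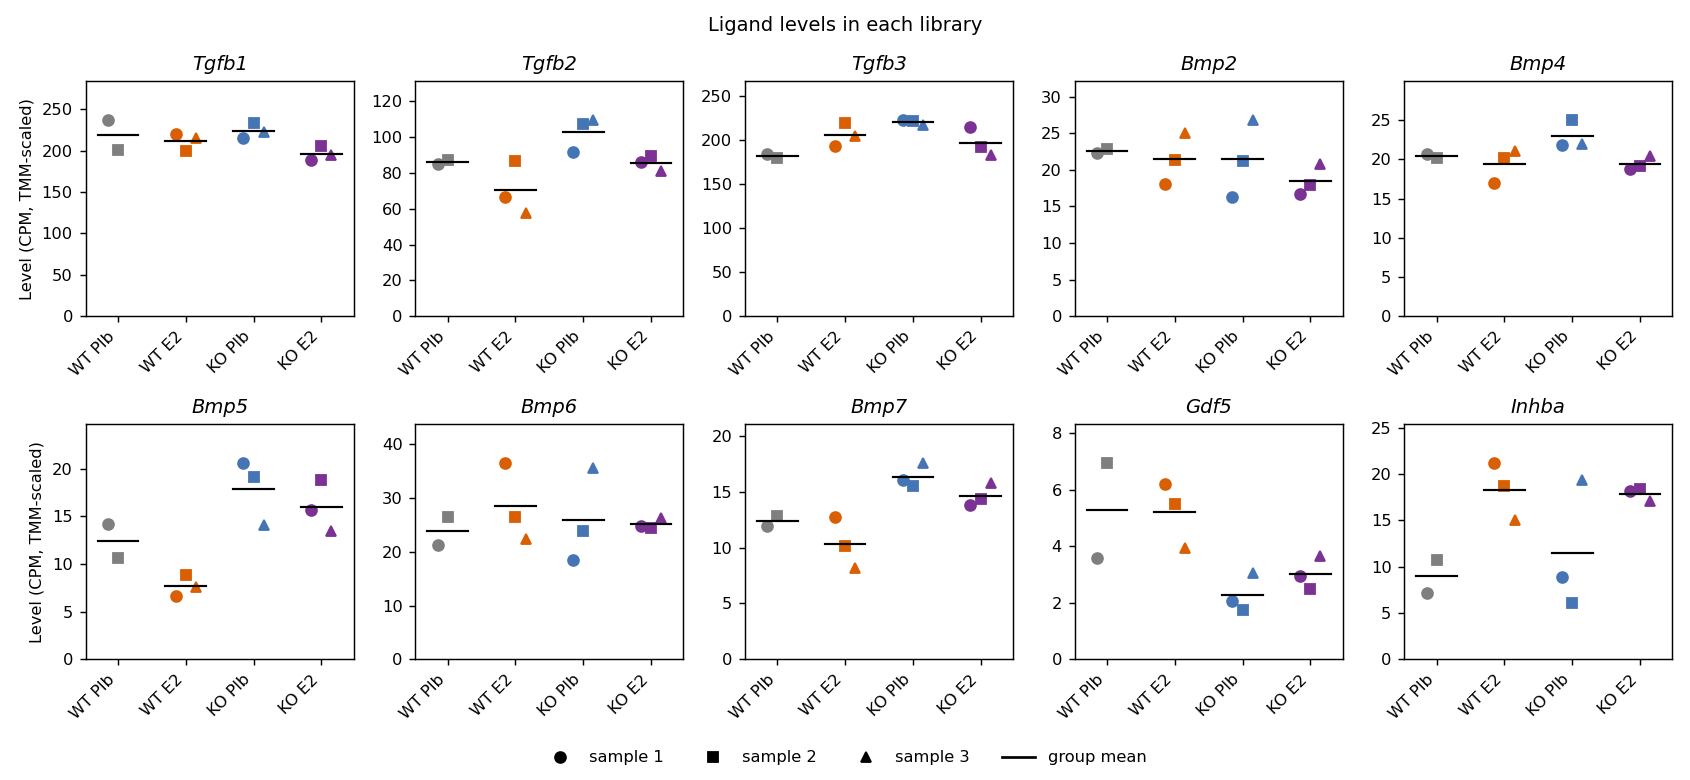
Level of each ligand in CPM by group, with 1 panel per ligand, marker shapes for the sample number and a bar at the group mean. Bmp5 is lowest in the 3 WT E2 libraries (6.63 to 8.88 CPM), Bmp7 is higher in all KO libraries than in all WT libraries, and KO Plb sample 3 stands at 19.4 CPM for Inhba.

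The sequences upstream of Bmp5 and Inhba are shown because these ligands had the largest log2 differences in WT under estradiol, one lower and one higher. RefSeq's promoter table for GRCm38.p6 held 6 of the 10 ligands (Tgfb1, Tgfb2, Bmp4, Bmp5, Bmp6, Inhba). The 250 bases before the start site were searched on both strands for the estrogen response element GGTCANNNTGACC and for its GGTCA arm, which lies within it. Bmp5 lies at chr9:75775115-75775364 (plus strand) and Inhba at chr13:16011601-16011850 (plus strand), both 5′ to 3′, with any GGTCA arm on either strand in capitals.
Bmp5: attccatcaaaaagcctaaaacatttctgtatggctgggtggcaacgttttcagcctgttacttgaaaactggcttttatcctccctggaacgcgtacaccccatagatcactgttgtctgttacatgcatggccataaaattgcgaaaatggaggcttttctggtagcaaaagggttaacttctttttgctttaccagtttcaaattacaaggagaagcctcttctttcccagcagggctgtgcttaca
Inhba: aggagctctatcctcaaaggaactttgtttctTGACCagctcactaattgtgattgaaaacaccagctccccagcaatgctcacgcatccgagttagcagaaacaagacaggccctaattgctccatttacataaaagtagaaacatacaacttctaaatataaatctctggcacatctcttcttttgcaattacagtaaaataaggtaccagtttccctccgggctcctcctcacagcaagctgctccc
The full element was in none of the 6 windows and in 21 of all 32851 windows of this length (0.0639%). The GGTCA arm was in 35.2% of all windows. It occurred 1 time upstream of Inhba, with its first base 218 bases before the start site, and 1 time upstream of Tgfb1, 2 times upstream of Bmp6, and not upstream of Bmp5, Bmp4 or Tgfb2. The GC content was 42.8% for Bmp5 and 43.2% for Inhba, below the median of 52.4% over all windows. A match or its absence describes these letters in this window only.

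No TGF-beta isoform was called in the main fit. Tgfb1 and Tgfb3 differed little between groups, while Tgfb2 group means ran from 70.2 CPM in WT E2 to 102.8 CPM in KO Plb. Tgfb1, the isoform that dominates in bone and cartilage matrix, stood at 236.9 and 201.3 CPM in WT Plb, at 219.8, 200.2 and 215 CPM in WT E2, at 215.1, 233.5 and 222.2 CPM in KO Plb and at 188.3, 205.2 and 194.8 CPM in KO E2. The KO E2 libraries lay below the KO Plb libraries without overlap, at a log2 difference of -0.19 (SE 0.08, edgeR adjusted p = 0.268), while the WT groups overlapped at -0.05 (SE 0.09).

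Tgfb2, an isoform prominent in mesenchymal tissue during development, stood at 84.9 and 87.0 CPM in WT Plb and at 66.4, 86.8 and 57.5 CPM in WT E2. In KO it stood at 91.6, 107.3 and 109.5 CPM under placebo and at 86.1, 89.6 and 81.3 CPM under estradiol. The WT E2 libraries spread widely, with sample 2 at the WT Plb level and samples 1 and 3 the lowest of all 11. The log2 difference under estradiol was -0.29 in WT (SE 0.14) and -0.26 in KO (SE 0.13), and KO against WT under estradiol gave 0.29 (SE 0.13, edgeR adjusted p = 0.174). Without WT E2 sample 2 the last difference rose to 0.47, with an adjusted p of 0.0221.

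Tgfb3, which has a known part in palate and tendon formation, was the ligand with the smallest interaction p. It stood at 184.3 and 179.8 CPM in WT Plb, at 193.2, 219.4 and 204.7 CPM in WT E2, at 222.5, 221.6 and 217.0 CPM in KO Plb and at 215.1, 191.8 and 182.7 CPM in KO E2. Estradiol libraries lay above placebo libraries in WT and below them in KO, each time without overlap. The log2 difference was 0.18 in WT (SE 0.09) and -0.17 in KO (SE 0.08), and the interaction of 0.34 (SE 0.12, unadjusted p = 0.0147, edgeR adjusted p = 0.242) was not called. Under placebo, Tgfb3 was 0.28 higher in KO on the log2 scale (SE 0.09, edgeR adjusted p = 0.491), and under estradiol it was -0.07 (SE 0.08).

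Gdf5, the joint-forming factor, had low levels in KO under either pellet. It stood at 3.61 and 6.94 CPM in WT Plb, at 6.20, 5.52 and 3.96 CPM in WT E2, at 2.07, 1.74 and 3.06 CPM in KO Plb and at 2.96, 2.49 and 3.66 CPM in KO E2. Under each pellet the KO libraries lay below the WT libraries, although KO E2 sample 3 reached just past WT Plb sample 1. The log2 difference of KO from WT was -1.19 under placebo (SE 0.33, edgeR adjusted p = 0.468) and -0.77 under estradiol (SE 0.29, edgeR adjusted p = 0.114), and neither was called. The placebo value rested on the pair of WT Plb libraries, which differed from each other: it was -1.60 without sample 1 and -0.65 without sample 2. In the authors' deposited table for KO against WT under estradiol, Gdf5 had a log2 fold change of -0.74 and an adjusted p of 0.0510. The chondrocyte markers moved in the same direction, as did other lists. For KO against WT under placebo, 9 of 9 tested chondrocyte genes had log2 differences under 0, with 2 at an unadjusted p under 0.05. None was called by edgeR, DESeq2 or limma-voom. Under estradiol, 8 of 9 were under 0, with 1 called lower. The chondrocyte sum was 12830 to 22350 CPM in WT Plb and 13790 to 23960 CPM in WT E2. It was 8871 to 12120 CPM in KO Plb and 8440 to 17820 CPM in KO E2. Under placebo, 10 of 10 dividing cell, 8 of 8 megakaryocyte and platelet, 7 of 8 osteoclast and 6 of 7 macrophage markers were also under 0. Above 0 were 8 of 8 B lineage, 5 of 6 endothelial and 7 of 9 osteoblast and osteocyte markers, against 49.3% of all genes. Under estradiol, 8 of 8 osteoclast and 7 of 7 macrophage markers were under 0, and 8 of 8 B lineage markers above 0. The part of these cell types in the Gdf5 difference was not tested.

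Bmp2, Bmp4 and Bmp6 showed no called difference in any comparison. Bmp2, which drives cartilage and bone formation, averaged 22.6 ± 0.415 CPM in WT Plb (SD, n = 2), 21.5 ± 3.45 CPM in WT E2, 21.4 ± 5.27 CPM in KO Plb and 18.5 ± 2.15 CPM in KO E2 (n = 3 each). Its single libraries ran from 16.3 to 26.8 CPM, both in KO Plb, so the spread within that group was as wide as that over all libraries. Bmp4, with related roles in skeletal patterning, averaged 20.4 ± 0.339 CPM in WT Plb, 19.4 ± 2.16 CPM in WT E2, 22.9 ± 1.78 CPM in KO Plb and 19.4 ± 0.829 CPM in KO E2. The KO E2 libraries of Bmp4 (18.8 to 20.4 CPM) lay below the KO Plb libraries (21.9 to 25.0 CPM), at a log2 difference of -0.24 (SE 0.11, edgeR adjusted p = 0.279). Bmp6, known in hypertrophic cartilage and for iron control by the liver, averaged 23.9 ± 3.64 CPM in WT Plb, 28.5 ± 7.20 CPM in WT E2, 26.0 ± 8.82 CPM in KO Plb and 25.2 ± 0.984 CPM in KO E2. WT E2 sample 1 (36.5 CPM) and KO Plb sample 3 (35.7 CPM) were its high libraries.

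Ranges without overlap were common among all genes in groups of this size and carry little weight on their own. They occurred for 3 ligands with estradiol in WT (Tgfb3, Bmp5, Inhba), against 27.0% of genes tested, and for 4 in KO (Tgfb1, Tgfb2, Tgfb3, Bmp4), against 24.8%. They occurred for 5 ligands in KO against WT under placebo (Tgfb2, Tgfb3, Bmp4, Bmp7, Gdf5), against 27.0%, and for 3 under estradiol (Bmp5, Bmp7, Gdf5), against 34.6%. In the estradiol comparison in KO all 4 such ligands were lower with estradiol, a direction in which 12.4% of genes were apart.

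The other genes of the pathway were taken from 7 lists of 103 genes, of which 99 were in the table and 86 were tested. Estradiol in WT called 2 of the 86 by edgeR, where 1.55% of all genes were called, so by edgeR the count itself was near the background. DESeq2 called 9 of the 86, a larger share than its 4.51% of all genes. Limma-voom called 2 of the 86, also a larger share than its 0.970% of all genes. The edgeR calls were both higher and both in the list of 15 tested genes for latency, storage and processing. Thbs1, which encodes thrombospondin 1, a matrix protein able to activate latent TGF-beta, stood at 128 and 122 CPM in WT Plb and at 484, 469 and 425 CPM in WT E2. In KO it stood at 134, 149 and 145 CPM under placebo and at 172, 161 and 178 CPM under estradiol. The WT E2 libraries were far above all others, and in WT the rise was 3.67-fold, a log2 difference of 1.87 (SE 0.10, edgeR adjusted p = 9.87e-07). In KO the estradiol difference was 0.26 (SE 0.08, edgeR adjusted p = 0.1155) and was not called. The interaction was 1.61 (SE 0.12, edgeR adjusted p = 8.44e-05), and under estradiol Thbs1 was lower in KO by a log2 difference of -1.43 (SE 0.08, edgeR adjusted p = 1.53e-06).

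Fbn2, which encodes the microfibril protein fibrillin 2, had a like pattern at a lower level. It stood at 9.58 and 8.44 CPM in WT Plb, at 22.0, 21.6 and 15.2 CPM in WT E2, at 11.2, 10.6 and 11.3 CPM in KO Plb and at 11.4, 10.2 and 12.6 CPM in KO E2. It rose with estradiol in WT by a log2 difference of 1.12 (SE 0.17, edgeR adjusted p = 0.00539), and it was lower in KO than in WT under estradiol, at -0.78 (SE 0.15, edgeR adjusted p = 0.00605). Its interaction of 1.08 (SE 0.23, edgeR adjusted p = 0.0456) was at the threshold: it was lost when any 1 library other than WT E2 sample 3 or KO E2 sample 3 was left out, with adjusted p up to 0.173. The next smallest p for estradiol in WT was that of Tagln, a smooth muscle gene induced by TGF-beta, at -0.99 (SE 0.22, edgeR adjusted p = 0.0503). In the interaction it was that of Smad2, at -0.41 (SE 0.12, edgeR adjusted p = 0.141), and neither was called.

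In KO, estradiol called 1 of the 86 genes by edgeR, against 2.73% of all genes, and 10 by DESeq2, against 6.55%. Lrrc33, which encodes a protein that holds latent TGF-beta on myeloid cells, rose from 14.9, 16.3 and 14.6 CPM to 21.7, 34.1 and 25.1 CPM, a log2 difference of 0.82 (SE 0.17, edgeR adjusted p = 0.0308). That call held in 5 of 11 fits that left out 1 library, and it was lost without WT E2 sample 1, any KO Plb sample, or KO E2 sample 2 or 3, with adjusted p up to 0.127. Neutrophil lineage markers moved in the same libraries, with 9 of 9 log2 differences above 0 for estradiol in KO (median 3.11, none called by edgeR, DESeq2 or limma-voom and 4 at an unadjusted p under 0.05) and sums of 0.719 to 717.5 CPM under placebo and 1251 to 4496 CPM under estradiol, while the macrophage sums of 672.5 to 674.9 and 593.9 to 736 CPM overlapped. Their part in the rise of Lrrc33 was not tested. In WT, Lrrc33 stood at 15.7 and 20.8 CPM under placebo and at 19.3, 19.0 and 25.2 CPM under estradiol. The left-right factor Lefty1 (-1.16, SE 0.28, edgeR adjusted p = 0.0541) and the BMP antagonist Chrd (-0.47, SE 0.14, edgeR adjusted p = 0.0985) came next and were not called.

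KO against WT under placebo called 0 of the 86 genes by edgeR, DESeq2 and limma-voom, with 7 at an unadjusted p under 0.05. The smallest p-values were those of Smad6, an inhibitory SMAD and BMP target (log2 difference 0.33, SE 0.10, edgeR adjusted p = 0.482), Smad9, a BMP-activated SMAD (0.41, SE 0.14, edgeR adjusted p = 0.509) and Skil, a repressor of SMAD activity (0.32, SE 0.12, edgeR adjusted p = 0.529). Of the 12 other ligands of the family that were tested, 12 had a log2 difference above 0 in this comparison, with a median of 0.29, and so had 8 of the 10 ligands described above (median 0.21) and 12 of 13 SMADs and their regulators (median 0.14). The other lists were closer to balance: 11 of 15 genes for latency, storage and processing were above 0 (median 0.10), 10 of 17 receptors and co-receptors (median 0.09), 7 of 13 antagonists (median 0.02), 6 of 10 BMP targets (median 0.05) and 7 of 12 TGF-beta targets (median 0.07). Of all genes tested, 49.3% were above 0, with a median of -0.0033, and no direction is read for the pathway as a whole.

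Under estradiol, KO against WT called 2 pathway genes higher and 4 lower, which is 6 of 86 against 11.5% of all genes. Smad2, which carries TGF-beta and activin signals, was higher in KO E2 (51, 53.8 and 56.3 CPM) than in WT E2 (40.8, 39.2 and 37.5 CPM), at a log2 difference of 0.46 (SE 0.08, edgeR adjusted p = 0.00427). Its placebo levels were 53.0 and 47.4 CPM in WT and 54.8, 52.5 and 47.8 CPM in KO, so WT E2 was the low group. Acvr1, a type I receptor for BMPs and activins, was higher in KO by 0.27 (SE 0.08, edgeR adjusted p = 0.0391), at 62.4, 59.0 and 66.5 CPM against 54.4, 53.8 and 47.2 CPM in WT E2. The 4 lower genes were Thbs1 and Fbn2, described above, and the processing enzymes Bmp1 and Pcsk6. Bmp1, a metalloproteinase that trims procollagens and is not a ligand despite its name, gave -0.28 (SE 0.08, edgeR adjusted p = 0.0377). Pcsk6, a convertase that cleaves ligand precursors, gave -0.40 (SE 0.11, edgeR adjusted p = 0.0391). The calls of Acvr1, Bmp1 and Pcsk6 were each close to the threshold: they held in 3, 3 and 5 of the 11 fits that left out 1 library, with adjusted p up to 0.139, 0.153 and 0.134. Smad2, Thbs1 and Fbn2 were called in all 11.

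**Figure D4:**
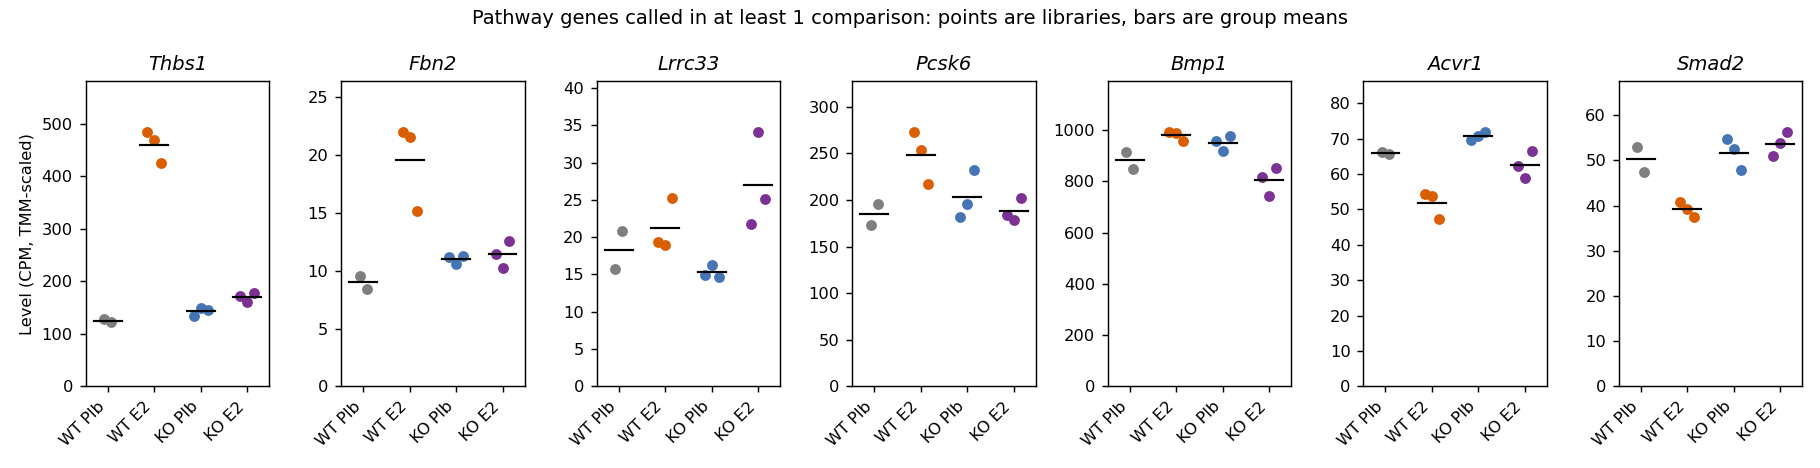
Level in CPM of the 7 pathway genes called in at least 1 comparison, by group, with 1 panel per gene, 1 point per library and a bar at the group mean. Thbs1 and Fbn2 are highest in the 3 WT E2 libraries, where Thbs1 reaches 425 to 484 CPM, and Smad2 and Acvr1 are lowest there.

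The remaining lists had no called gene in any of the 5 comparisons by edgeR: the 12 other ligands tested, the 13 extracellular antagonists, the 10 BMP target genes and the 12 TGF-beta target genes. At an unadjusted p under 0.05 there were at most 4 in any of these lists and comparisons, and limma-voom called 0. Over the 5 comparisons DESeq2 made 4 calls among the other ligands, 2 among the antagonists, 2 among the TGF-beta targets and 0 among the BMP targets, all for estradiol. Among the targets, the medians for estradiol were -0.12 in WT and -0.20 in KO for the BMP targets, and -0.12 and -0.15 for the TGF-beta targets.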

How the data were processed

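The authors deposited raw whole-number counts per gene symbol for 11 samples, 1 column each, with 0 columns left unmapped. The submitters' processing notes name bcl2fastq 2.17, TopHat and the genome build mm9. How reads were assigned to genes is not given in the sources used here, strand included. The authors' deposited comparison tables hold log2 fold changes and p-values, per the file headers, and each value taken from them is named as theirs.

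From the counts, edgeR 4.0.16 in R 4.3.3 kept genes with filterByExpr (minimum count 10, total 15; 14531 genes, 99.98% of counts), scaled libraries by TMM and fitted 4 group means over all samples (7 residual degrees of freedom) with a robust quasi-likelihood test. Of the symbols, 5218 had no counts. Same-group libraries differed beyond sampling noise (chi-square per degree of freedom 9.5 to 175.2 over 10 pairs), more than copies of 1 library would; this does not show separate animals. CPM per kb used GENCODE exon lengths of GRCm38, not mm9. Upstream sequences are RefSeq's, GRCm38.p6. The fits were tested on simulated counts.

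Alternatives were other scalings, filters, DESeq2 1.42.0, limma-voom (limma 3.58.1), only the groups compared, a replicate block, Rn45s left out, and each library left out. KO Plb and KO E2 samples of the same number deviated together (r = 0.290, 0.386 and 0.142), so the numbers may pair them, although the labels name no shared batch. In WT the values were -0.203 and -0.159. The sample codes skip a number between the WT Plb samples, so the number of the second may not match that of other groups. In that case the replicate block would mis-pair it.

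Named genes were the 10 ligands, each called member of the pathway lists, where fewer than 3 were called the 3 smallest p-values, and the 3 genes most correlated with each called ligand, of which 1 is not reported here. The members and lists were chosen with earlier results of these data known. Counting intervals cover counting error only.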

Additional observations from a re-analysis of the deposited data

Results flagged for a closer look

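The test of the difference itself called 2 of the 86 pathway genes tested, whose estradiol difference departed between WT and KO, and none of the 10 ligands. It called 1.15% of all genes, so these counts do not set the pathway apart. For Thbs1, which encodes thrombospondin 1, the interaction was 1.61 on the log2 scale (SE 0.12, edgeR adjusted p = 8.44e-05): estradiol gave 1.87 in WT, where all 3 estradiol libraries lay above both placebo libraries. In KO it gave 0.26 (SE 0.08, edgeR adjusted p = 0.1155), which was not called, although the estradiol libraries also lay above the placebo libraries. For Fbn2, which encodes fibrillin 2, the interaction was 1.08 (SE 0.23, edgeR adjusted p = 0.0456), with an estradiol difference of 1.12 in WT and 0.04 in KO. Groups held 2 or 3 samples, too few for the check of single outlying samples.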

How the results depend on the processing

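Bmp5 in KO against WT under estradiol was called in all 21 other fits (log2 difference 0.93 to 1.17, adjusted p up to 0.0223), and Bmp7 in 9 of 21. That comparison called 1 ligand (Bmp5) with only the 2 groups compared, with the replicate block and with WT Plb 2 and KO Plb 1 both left out. Leaving out each library in turn gave 1 to 2 called ligands there, 0 to 1 for estradiol in WT and in KO (Inhba, without KO Plb 3), and 0 in the interaction and under placebo.

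The number of genes called, which sets the background percentages, moved most. Estradiol in WT called 656 with DESeq2, 141 with limma-voom and 448 at an adjusted p under 0.1. In KO it called 952 with DESeq2, 226 with only the 2 groups compared, 629 with the replicate block, 134 with the pair of libraries left out and 714 under 0.1. The interaction called 561 with DESeq2, 69 with limma-voom, 301 with the replicate block, 56 with the pair left out and 395 under 0.1. KO against WT called 40 under placebo with DESeq2 and 17 with the replicate block, and 2512 under estradiol at 0.1. Leaving out each library in turn gave 113 to 285 for estradiol in WT, 105 to 505 in KO, 68 to 270 for the interaction, and 1 to 50 and 867 to 1850 for KO against WT under placebo and estradiol. The higher and lower calls split 246 and 410 with DESeq2 and 77 and 64 with limma-voom for estradiol in WT, and 691 and 261 with DESeq2 in KO. Over all groups, 7 of 15 same-numbered pairs deviated together above 0.1 (from -0.203 to 0.386), and the block changed no ligand call other than that of Bmp7. The cause of these shifts was not tested.

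Directions turned only for ligand differences that were not called, given here on the log2 scale. Bmp4 in KO against WT under estradiol became -0.022 with upper quartile scaling, -0.0021 with only the 2 groups compared and -0.0012 without Rn45s. Gdf5 for estradiol in WT became 0.083 with limma-voom and 0.53 with the pair left out, and Bmp6 in KO became 0.013 with limma-voom. In the interaction, Bmp2 became -0.021 with the replicate block, and Tgfb2 0.063 and Gdf5 0.19 with the pair left out. Under placebo, KO against WT became -0.056 for Tgfb1 and 0.11 for Bmp2 with the pair left out. Leaving out each library in turn gave, for estradiol in WT, -0.16 to 0.067 for Tgfb1, -0.20 to 0.035 for Bmp2, -0.13 to 0.016 for Bmp4 and -0.42 to 0.53 for Gdf5, and in KO -0.24 to 0.25 for Bmp6. For the interaction it gave -0.21 to 0.097 for Tgfb2, -0.051 to 0.30 for Bmp2, -0.27 to 0.049 for Bmp7, -0.82 to 0.12 for Gdf5 and -0.21 to 0.70 for Inhba. For KO against WT it gave, under placebo, -0.081 to 0.15 for Tgfb1, -0.27 to 0.087 for Bmp2, -0.18 to 0.32 for Bmp6 and -0.24 to 0.67 for Inhba, and under estradiol -0.092 to 0.066 for Bmp4, -0.32 to 0.036 for Bmp6 and -0.16 to 0.081 for Inhba. Where a group was left with 1 library, that library is assumed to vary like the other groups. Gdf5, with as few as 37 counts, is limited by depth as well as by the number of samples.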
